A study of Mus musculus with 22 samples.

Results

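Elastic fibres give connective tissue its recoil. They consist of a core of elastin, secreted as tropoelastin, laid down on a scaffold of fibrillin microfibrils, and they are crosslinked by copper enzymes of the lysyl oxidase family. In skin and in the loose tissue beneath it they are made mainly by fibroblasts, and in most adult tissues little new elastin is laid down. The genes described here encode tropoelastin (Eln), the fibrillins (Fbn1, Fbn2), fibulin-5, which binds tropoelastin and helps to place it on microfibrils (Fbln5), the microfibril-associated glycoprotein MAGP-2 (Mfap5) and an elastin-crosslinking lysyl oxidase (Loxl1). They were named by symbol, and each was read from the probe that carried its symbol alone and had the highest mean over all 22 samples. Of the 6 listed genes 5 were measured by 7 probes, among 12384 genes and 22626 probes in all. Fbn1 was not analysed here, as no probe carried its symbol in the annotation table used.

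Samples were loose subcutaneous connective tissue of the trunk of male C57BL/6 mice of 19 to 24 g, measured on arrays of biotin-labelled cRNA. Stretched and shortened tissue were compared within an animal, with randomized assignment. There were 4 stretched and 4 shortened samples of 4 animals ex vivo, and 7 stretched and 7 shortened samples of 7 animals in vivo, so the 22 samples came from 11 animals. No transgene or drug is named for any group, and the force, the length of the stretch and the way explants were kept are not given in the sources used here. Values are log2 signals, on which a difference of 1 is a doubling, and a probe's level says nothing of another probe's.

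The mean of 11 fibroblast markers ran from 10.4, in an ex vivo stretched sample, to 12.3, in an in vivo shortened sample. Among the brightest were Dcn, a collagen-binding proteoglycan (13.5 to 14.2), and Col1a2 (12.3 to 14.1). Some markers of other cells were also bright in every sample, such as Mbp of Schwann cells (12.1 to 13.3) and Fabp4 of adipocytes (11.4 to 13.6). Skeletal muscle markers were not low throughout: the mean of 14 such genes ran from 4.93 to 12.5 over the samples. The 3' to 5' difference of the Gapdh control probes, which grows as RNA degrades, was 0.0497 to 0.912 ex vivo, 0.111 to 0.272 in vivo in animals 1 to 3, and 0.866 to 3.61 in vivo in animals 4 to 7. In such whole tissue, fewer cells of a type and less RNA per cell cannot be told apart.

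Of the measured genes only Fbln5 has upstream windows in the RefSeq table for GRCm38.p6. The other of its 2 windows was not searched for motifs, so the motif results hold for the searched window alone. It covers the 250 bases before the annotated start, chr12:101819120-101819369 on the minus strand, 5′ to 3′, with GC boxes (GGGCGG on either strand) in capitals:
Fbln5 upstream: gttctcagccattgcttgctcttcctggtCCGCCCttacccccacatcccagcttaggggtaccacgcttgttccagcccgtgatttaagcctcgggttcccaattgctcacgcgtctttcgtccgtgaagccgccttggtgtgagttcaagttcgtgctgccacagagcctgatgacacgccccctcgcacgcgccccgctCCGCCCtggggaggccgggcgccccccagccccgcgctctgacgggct
The window is 65.2% G and C. A GC box stands 221 and 48 bases before the start, and 32.742% of all 32851 windows of this length hold one. The letters of the AP-1 site (TGANTCA), of the TEAD site (GGAATG), of the palindromic SMAD site (GTCTAGAC) and of the TATA box (TATAAA), searched on both strands, are not in this window. Of all windows 6.749% hold TGANTCA, 12.642% GGAATG, 0.167% GTCTAGAC and 12.368% TATAAA.

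In vivo, all 5 genes averaged lower in stretched than in shortened tissue, by 0.18 to 0.30 on the log2 scale, or 0.811-fold to 0.886-fold. None passed the limma test with Benjamini-Hochberg adjustment over all probes, which called 0 of 22626 probes (0%). At an unadjusted p under 0.05 all 5 were lower, where 11.4% of all probes were lower and 7.95% higher. The median over all probes was -0.02.

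Mfap5 had the most uniform direction in vivo. Its signal was 11.89 to 12.77 with a median of 12.39 in stretched tissue, against 12.54 to 12.83 with a median of 12.65 in shortened tissue. It was lower in the stretched piece in 7 of 7 animals, as 3.68% of all probes were. The group ranges overlapped, and animal 3, the lowest stretched sample, had the widest gap (-0.76). The fitted difference was -0.30 ± 0.07 (SE, n = 7 pairs, adjusted p = 0.172), and the second Mfap5 probe gave -0.43 ± 0.09.

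Eln, the core protein's gene, had signals of 9.17 to 9.73 with a median of 9.47 in stretched tissue and of 9.44 to 10.14 with a median of 9.63 in shortened tissue. It was lower in 6 of 7 stretched pieces, and animal 6 differed by 0.03. The fitted difference was -0.25 ± 0.07 (adjusted p = 0.172). The dimmer Eln probe differed by -0.16 ± 0.14 (adjusted p = 0.570).

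Fbln5 had signals of 10.43 to 10.80 with a median of 10.51 in stretched tissue and of 10.55 to 10.91 with a median of 10.82 in shortened tissue. The stretched piece was lower in 6 of 7 animals, with animal 6 the exception by 0.01. The fitted difference was -0.22 ± 0.06 (adjusted p = 0.172).

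Loxl1, whose product crosslinks elastin, had signals of 12.15 to 12.77 with a median of 12.31 in stretched tissue and of 12.28 to 12.83 with a median of 12.53 in shortened tissue. It was lower in 5 of 7 stretched pieces and level, within 0.01, in animals 6 and 7. The fitted difference was -0.18 ± 0.06 (adjusted p = 0.181).

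Fbn2, the fibrillin most used in developing tissue, was near the lower end of the array, where 13.6% of probes had a lower mean. Its signals were 3.75 to 4.43 with a median of 4.08 in stretched tissue and 4.05 to 5.01 with a median of 4.26 in shortened tissue. The stretched piece was lower in 5 of 7 animals, and the fitted difference was -0.22 ± 0.10 (adjusted p = 0.250). Animals 1 to 3 gave -0.51 and animals 4 to 7 gave -0.01, the sets of low and high Gapdh 3' to 5' difference. Within the same sets the other 4 genes kept their direction, at -0.25 to -0.39 in the first set and -0.12 to -0.24 in the second. At an unadjusted p under 0.05, 4 of the 5 genes were lower in animals 1 to 3 (5.1% of probes) and 2 of 5, Mfap5 and Fbln5, in animals 4 to 7 (5.16% of probes). Eln moved most among those 4, with -0.39 in the first set and -0.14 in the second.

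**Figure D1:**
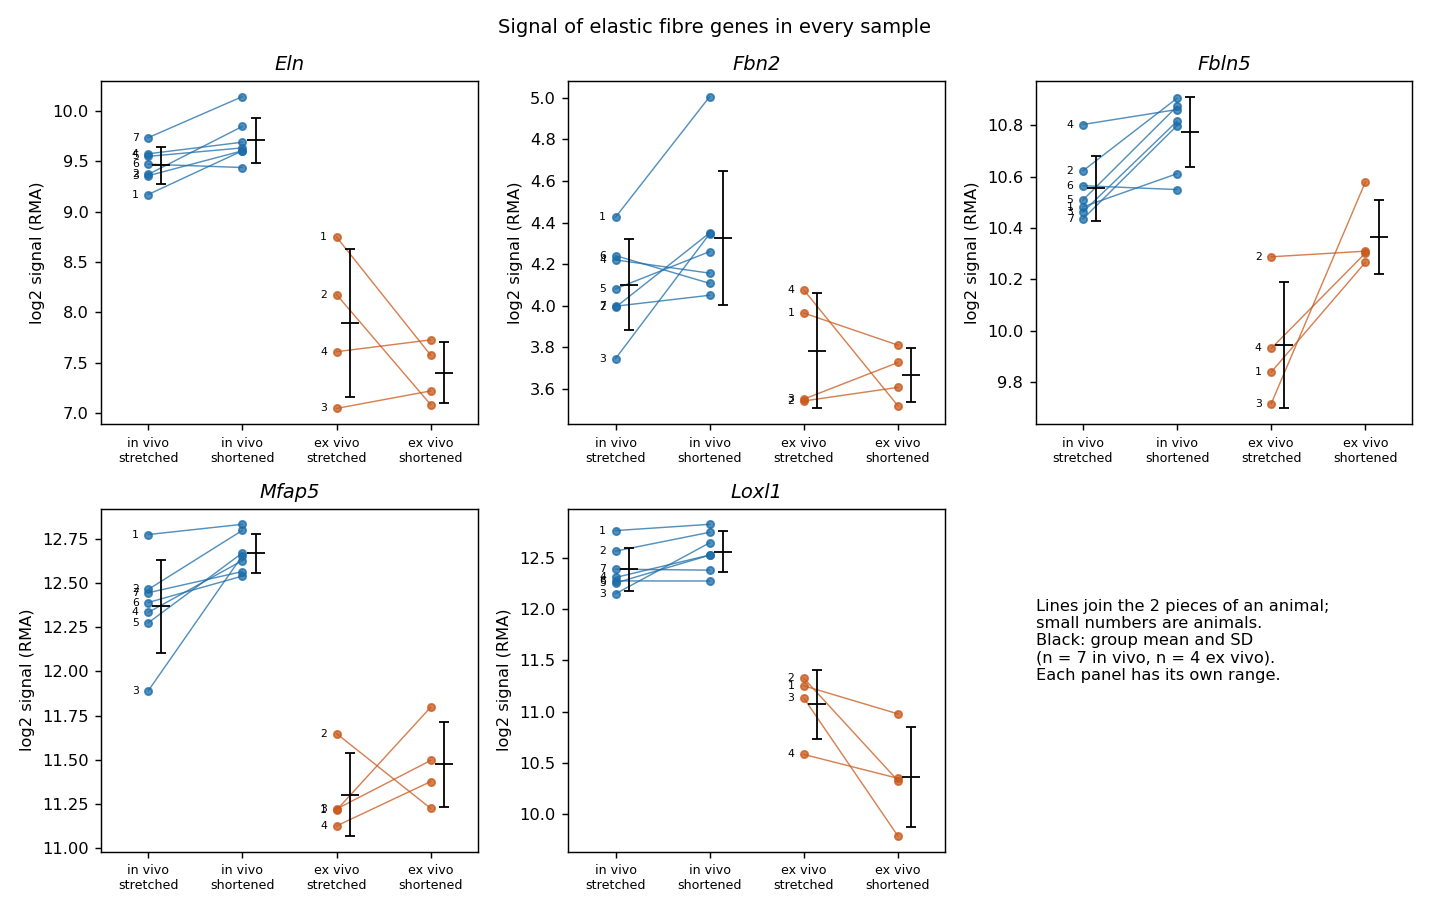
Log2 signal (y axis, own range per panel) of the 5 genes in every sample, by group (x axis), with lines joining the 2 pieces of an animal, small numbers for animals and black bars for group mean and SD (n = 7 in vivo, n = 4 ex vivo). Most in vivo lines run up from stretched to shortened tissue, and Loxl1 is the gene whose 4 ex vivo lines all run down.

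Counted by animal, all 5 genes were lower in the stretched piece of animals 1, 2, 3 and 5, and 4 of 5 were lower in animals 4 and 7. In animal 6, by contrast, 4 of 5 were higher by small amounts, with a mean over the genes of 0.01. The mean of 11 fibroblast markers was lower in stretched tissue in 7 of 7 animals (-0.14 ± 0.12, SD), and that of 6 macrophage markers in 6 of 7 (-0.19 ± 0.18, SD). The mean of 3 Schwann cell markers was lower in 6 of 7 (-0.35 ± 0.43, SD) and that of 6 adipocyte markers higher in 6 of 7 (0.42 ± 0.61, SD). The part of these cells in the result was not tested. Skeletal muscle markers averaged higher by 2.11 ± 2.21 (SD), with 5.92 in animal 5, 4.19 in animal 6 and -0.06 to 1.98 in the other animals.

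Animal 1, whose muscle markers differed by -0.06, had differences of -0.43 for Eln, -0.58 for Fbn2, -0.13 for Fbln5 and -0.06 for both Mfap5 and Loxl1. Animal 4, whose muscle markers differed by -0.02, had -0.11 for Eln, 0.06 for Fbn2, -0.06 for Fbln5, -0.29 for Mfap5 and -0.22 for Loxl1. With muscle content as a covariate the differences were -0.36 for Eln, -0.32 for Fbn2, -0.27 for Mfap5, -0.19 for Fbln5 and -0.17 for Loxl1, with 3 of 5 still at an unadjusted p under 0.05 (3.24% of probes lower in that fit). Without animals 5 and 6 all 5 were (7.45% of probes).

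Ex vivo the genes went different ways. Loxl1 was higher in stretched tissue in 4 of 4 animals, Fbln5 was lower in 4 of 4, and the others were mixed. No gene passed the limma test, which called 0 of 22626 probes (0%). At an unadjusted p under 0.05 Loxl1 was higher and Fbln5 lower, where 5.23% of probes were higher and 5.85% lower.

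Loxl1 had signals of 11.25, 11.33, 11.13 and 10.58 in stretched tissue of animals 1 to 4, against 10.98, 10.32, 9.78 and 10.35 in shortened tissue. The groups overlapped, since stretched tissue of animal 4 was below shortened tissue of animal 1, but each pair ran the same way, as in 10.8% of all probes. Pair differences were 0.27, 1.00, 1.35 and 0.23, and the fitted difference was 0.71 ± 0.20 (n = 4 pairs, 1.64-fold, adjusted p = 0.363, 95% interval 0.25 to 1.18).

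Fbln5 had signals of 9.84, 10.29, 9.72 and 9.93 in stretched tissue and of 10.27, 10.31, 10.58 and 10.30 in shortened tissue. Stretched samples of animals 1, 3 and 4 lay below every shortened sample. The stretched piece was lower in each pair, as in 9.32% of all probes (-0.02 in animal 2, -0.86 in animal 3). The fitted difference was -0.42 ± 0.13 (0.747-fold, adjusted p = 0.388), and -0.27 without animal 3 (unadjusted p = 0.0683). It was -0.26 with muscle content as a covariate (unadjusted p = 0.186) and -0.22 without animals 3 and 4, the animals with muscle-rich stretched samples (unadjusted p = 0.229). Loxl1 differed by 0.64 under both, with an unadjusted p of 0.0712 with the covariate and 0.0245 without those animals.

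Eln split the explants into pairs of animals. Signals were 8.75, 8.18, 7.05 and 7.61 in stretched tissue of animals 1 to 4 and 7.58, 7.09, 7.22 and 7.73 in shortened tissue. Eln was thus higher by 1.17 and 1.09 in animals 1 and 2, while animals 3 and 4 differed by -0.17 and -0.12. Muscle markers differed by -0.50 and 0.17 in animals 1 and 2 and by 5.15 and 5.55 in animals 3 and 4. The fitted difference over all 4 animals was 0.49 ± 0.26 (95% interval -0.14 to 1.12, adjusted p = 0.538). It was 1.13 ± 0.17 without animals 3 and 4 (adjusted p = 0.864) and 1.09 ± 0.13 with muscle content as a covariate (adjusted p = 0.522). The dimmer Eln probe gave 0.20 ± 0.12.

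The microfibril genes showed no common direction ex vivo. Mfap5 had signals of 11.22, 11.65, 11.22 and 11.13 in stretched tissue and of 11.80, 11.23, 11.50 and 11.38 in shortened tissue, so it was lower in 3 of 4 stretched pieces and higher in animal 2. Its fitted difference was -0.17 ± 0.15 (95% interval -0.54 to 0.20), and the second Mfap5 probe gave -0.34 ± 0.15. The first probe gave -0.03 without animal 1 and -0.37 without animal 2 (unadjusted p = 0.0101, adjusted p = 0.612). Fbn2 had signals of 3.97, 3.54, 3.55 and 4.08 in stretched tissue and of 3.81, 3.61, 3.73 and 3.52 in shortened tissue. It was higher in 2 of 4 pieces, and its fitted difference of 0.12 ± 0.13 (95% interval -0.19 to 0.43) was -0.03 without animal 4.

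The fibroblast markers ex vivo differed by 0.00 ± 0.25 (SD, n = 4), with 2 of 4 animals higher. Smooth muscle markers, a cell type that also makes elastin, differed by 0.51, -1.10, -1.17 and 0.68 in animals 1 to 4. The Gapdh 3' to 5' difference was higher by 0.77 in animal 1 and differed by -0.09 to 0.08 in the other animals. With it as a covariate Eln differed by 0.23 and Loxl1 by 0.83.

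**Figure D2:**
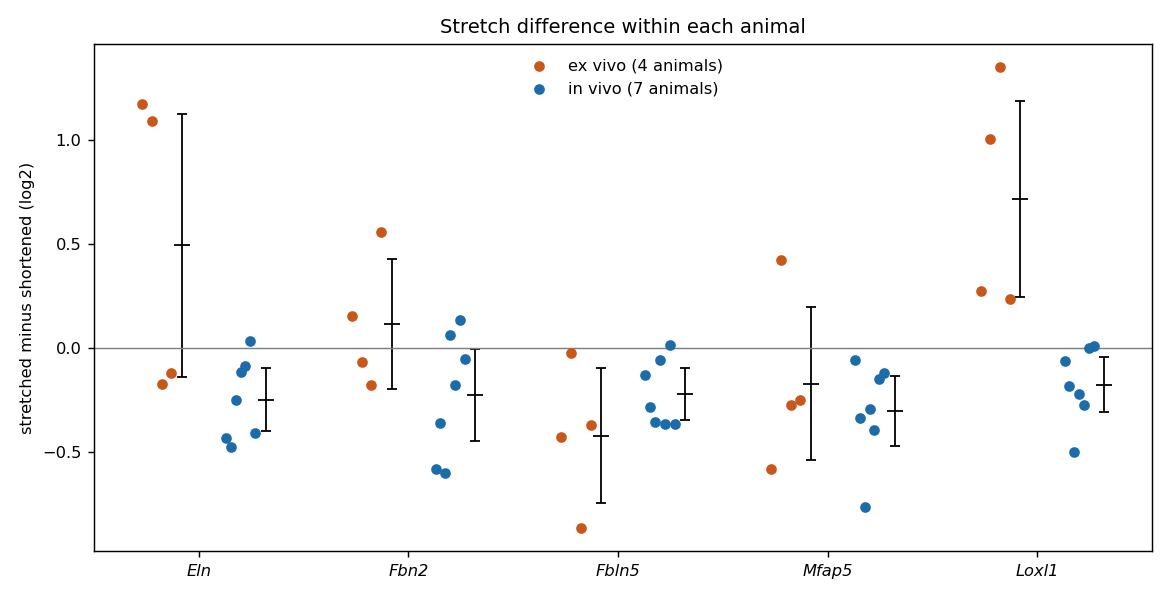
Stretched minus shortened log2 signal (y axis) of each gene (x axis), 1 point per animal, ex vivo left of in vivo, with black bars for the limma estimate and its 95% interval. Ex vivo points of Loxl1 lie above 0 and those of Fbln5 below it, while Eln has 2 points near 1.1 and 2 just below 0.

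**Figure D3:**
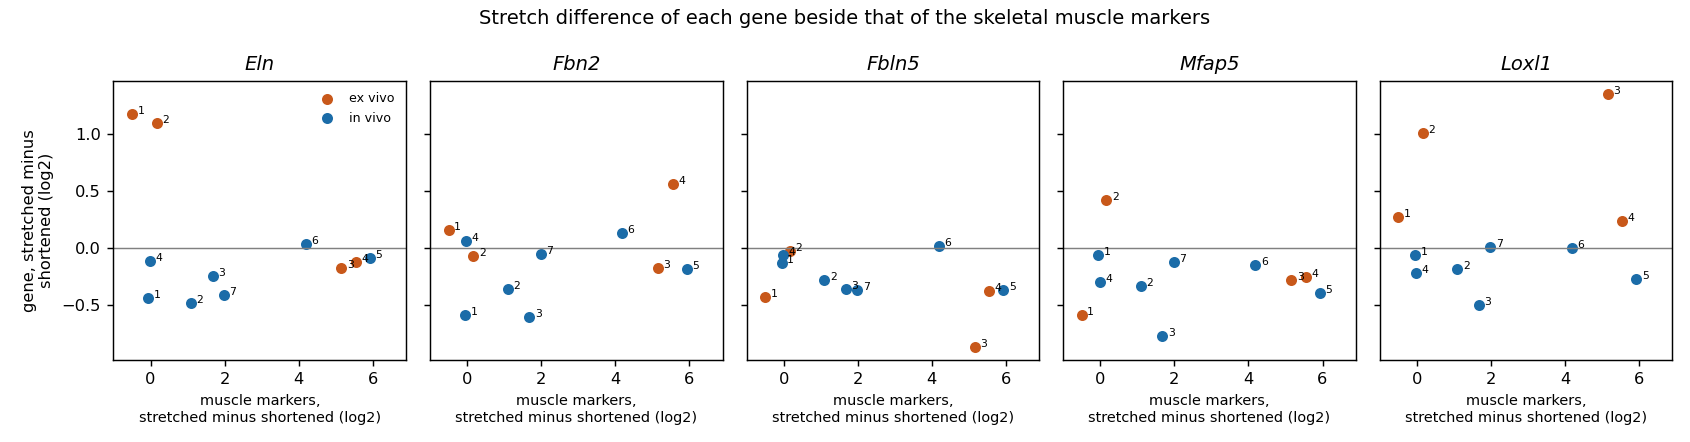
Stretched minus shortened log2 signal of each gene (y axis) beside that of the mean of 14 skeletal muscle markers (x axis), with 1 numbered point per animal. The ex vivo animals with high Eln differences, 1 and 2, have muscle differences of -0.50 and 0.17.

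Whether the response to stretch differed between settings was tested directly, as ex vivo minus in vivo. Loxl1 had the widest gap, 0.89 ± 0.19 (pair means 0.71 ex vivo and -0.18 in vivo), with adjusted p = 0.0749, above the threshold of 0.05. The fit took 1 residual spread per probe over both settings, though Loxl1 pair differences spread more ex vivo (SD 0.55) than in vivo (SD 0.18). Its SE is thus below that of the ex vivo fit alone (Loxl1 0.188 against 0.196, Eln 0.246 against 0.264). The precision of these gaps may therefore be overstated. The test called 40 of 22626 probes (0.177%). Without ex vivo animal 1 the Loxl1 gap was 1.04 (adjusted p = 0.0191) and without ex vivo animal 4 it was 1.05 (adjusted p = 0.0236), both past the threshold. Without ex vivo animal 2 it was 0.79 (adjusted p = 0.190) and without ex vivo animal 3 it was 0.68 (adjusted p = 0.240). Over the alternatives tried its adjusted p ran from 0.0191 to 0.330.

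Eln differed between settings by 0.74 ± 0.25 (pair means 0.49 ex vivo and -0.25 in vivo, adjusted p = 0.183). Leaving out the pairs with the widest muscle differences, in vivo animals 5 and 6 and ex vivo animals 3 and 4, gave 1.47 ± 0.13 (adjusted p = 0.0172), an alternative chosen after the data had been seen. At an unadjusted p under 0.05 Loxl1 and Eln were the genes called, both higher, where 8.56% of probes were. The dimmer Eln probe gave 0.36 ± 0.22 and was not called (limma unadjusted p = 0.117). The mean over both Eln probes gave 0.55 ± 0.19 (limma unadjusted p = 0.0140). The interval of the difference was -0.03 to 0.72 for Fbn2, -0.49 to 0.09 for Fbln5 and -0.23 to 0.49 for Mfap5, each of which includes 0.

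Other genes of elastic fibre assembly and turnover came from a list of 57 genes in 10 roles, of which 45 were measured. In vivo 33 of 45 were lower, where 56.3% of all probes were, with a median of -0.11, and 0 passed. At an unadjusted p under 0.05, 20 were lower and 2 higher, where 11.4% of all probes were lower and 7.95% higher. Without the 5 genes above, 15 of 40 were lower and 2 higher, with a median of -0.09. The 20 became 12 without animals 5 and 6 (7.45% of probes lower), 5 with the muscle covariate (3.24%), 14 in animals 1 to 3 (5.1%) and 8 in animals 4 to 7 (5.16%).

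By role, all 5 measured genes of crosslinking and copper supply averaged lower in vivo, 4 of them at an unadjusted p under 0.05 (Lox, Loxl1, Loxl3, Loxl4). Of 5 fibulins 4 were lower, 3 at that level, beside the same 56.3% and 11.4% of all probes. With the muscle covariate Loxl1 (unadjusted p = 0.0858) and Fbln5 (unadjusted p = 0.0553) were no longer at that level. In that fit 5 of the 45 listed genes were lower at that level, and 3 of them were Eln, Fbn2 and Mfap5. Most of Lox, Loxl3, Loxl4, Fbln1 and Fbln2 were therefore no longer at that level either. Of 4 genes named as latent TGF-beta binding proteins, 3 averaged higher in vivo and 1 lower. Ltbp1 differed by -0.27 ± 0.07, Ltbp2 by 0.31 ± 0.08 and Ltbp3 by 0.25 ± 0.09. The latter 2 were higher at an unadjusted p under 0.05, as 7.95% of all probes were. Among genes of smallest p in their role were Adamtsl4, a microfibril-binding protein (-0.35 ± 0.08), Mmp14, a membrane-bound protease (-0.18 ± 0.05), Timp3, a matrix-bound protease inhibitor (-0.25 ± 0.07), and the integrin subunit Itgav (-0.17 ± 0.05), each with adjusted p = 0.172. Emilin1, a glycoprotein at the elastin surface, differed by 0.07 ± 0.05.

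Ex vivo 26 of 45 listed genes were higher and 19 lower, where 49.6% of all probes were lower. The median was 0.02 and 0 passed the test. At an unadjusted p under 0.05 there were 5 higher and 4 lower, against 5.23% and 5.85% of all probes. Ltbp2, which was also higher in vivo, differed by 0.54 ± 0.10, the protease inhibitor Timp1 by 0.48 ± 0.09 (both adjusted p = 0.352) and Emilin1 by 0.30 ± 0.11. The integrin subunit Itgb3 differed by -0.36 ± 0.12. The macrophage elastase Mmp12, not among the 4 lower genes, differed by -0.29 ± 0.13 (limma unadjusted p = 0.0688). Lox, a crosslinking enzyme like Loxl1 and named after its value was seen, differed by -0.55 ± 0.18, opposite in sign to Loxl1. In the direct test of the settings 31 of 45 differences were positive (median 0.16), where 48.2% of all probes were negative (median 0.01). Of the 45 listed genes 0 passed, with 9 higher and 2 lower at an unadjusted p under 0.05 (8.56% and 6.74% of probes).

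**Figure D4:**
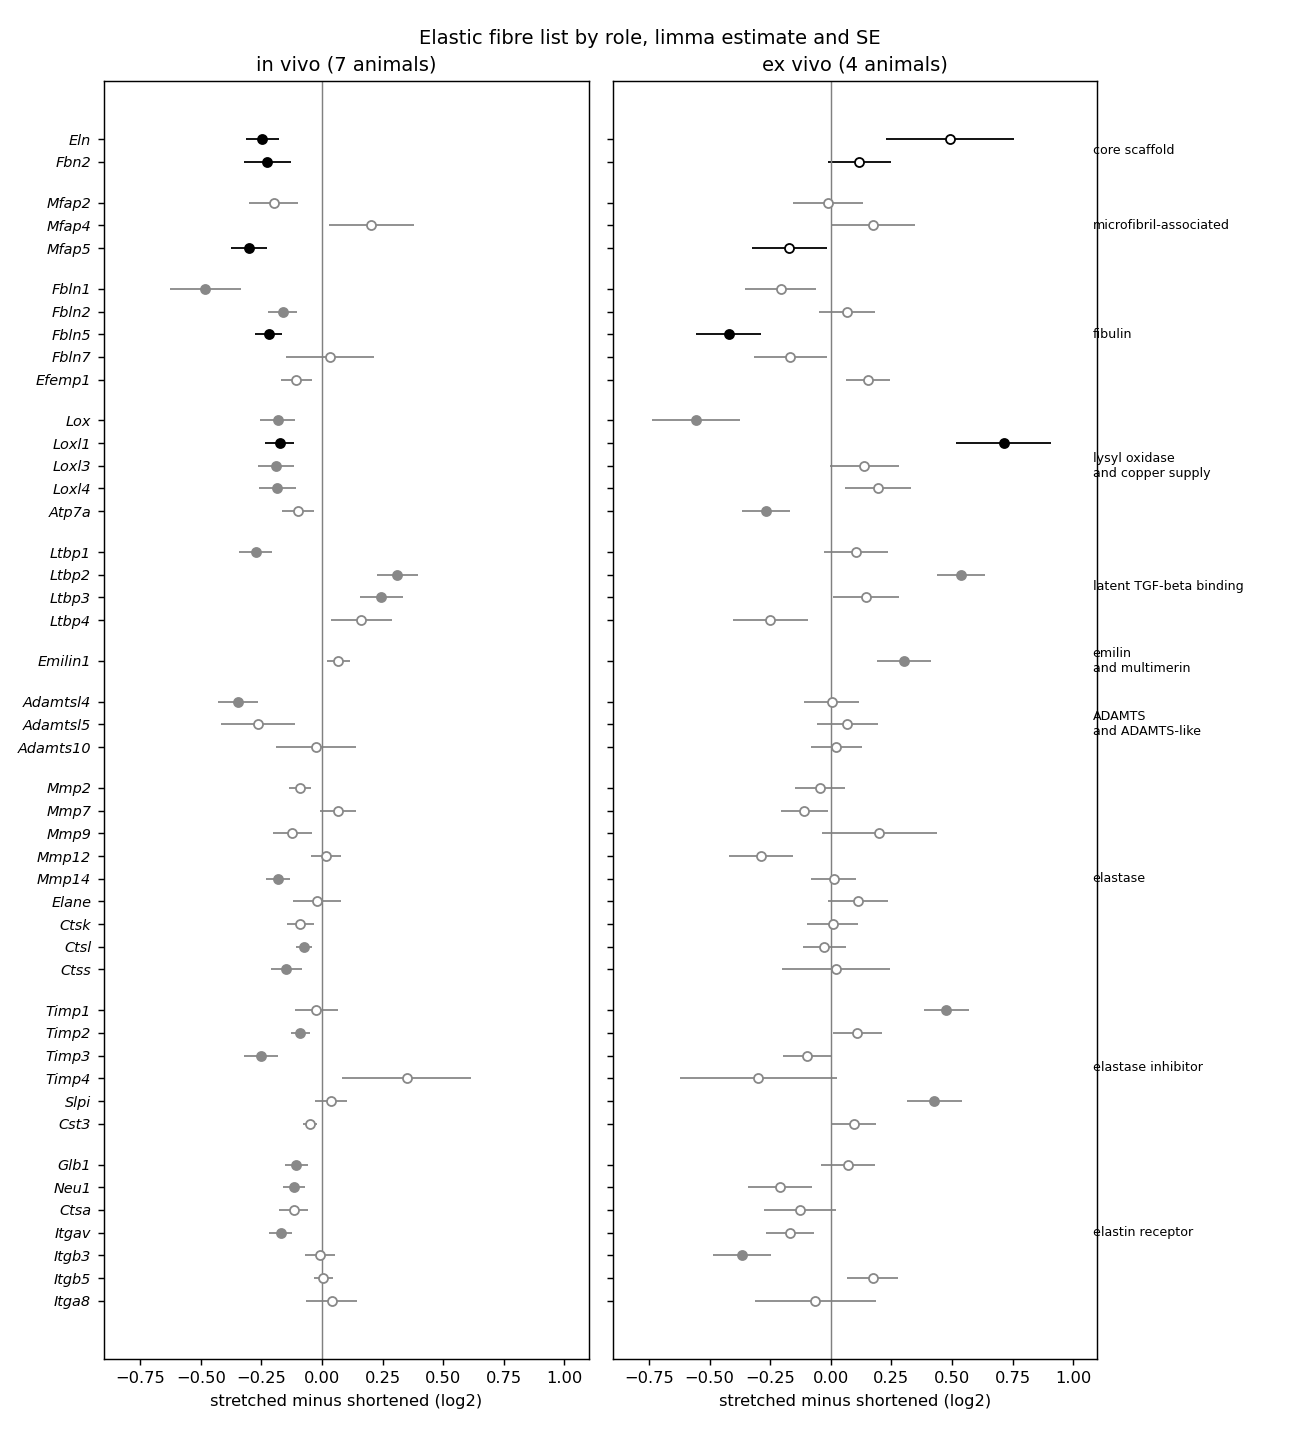
Stretched minus shortened log2 difference with its SE (x axis) of the 45 measured genes of the elastic fibre list (y axis, grouped by role) in vivo and ex vivo, with the 5 genes of the report in black, the others grey, and filled points for an unadjusted p under 0.05. In vivo 33 of the points lie below 0, and ex vivo 19 do.

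Levels in explants were set beside those in vivo after each sample had been centred on its median. Deposited sample medians began at 6.85 ex vivo, and every one of them lay below those in vivo (7.28 to 7.41), so the settings look normalized apart, and setting, array run and processing cannot be told apart. The centring takes out a shift of -0.44 in stretched and of -0.46 in shortened tissue. The test called 63.5% of probes in stretched and 66.5% in shortened tissue. Of the 5 genes 3 passed in both, all lower ex vivo, where 28.4% of probes in stretched and 29.6% in shortened tissue were lower (35.1% and 36.9% higher).

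Eln was 0.460-fold in ex vivo relative to in vivo stretched tissue (-1.12 ± 0.25, adjusted p = 0.00192) and 0.279-fold in shortened tissue (-1.84 ± 0.15, adjusted p = 2.75e-07). Its other probe gave 0.22 ± 0.24 in stretched and -0.12 ± 0.30 in shortened tissue and passed in neither, so the probes of Eln disagree. Loxl1 was 0.546-fold in stretched (-0.87 ± 0.15, adjusted p = 0.000239) and 0.298-fold in shortened tissue (-1.74 ± 0.17, adjusted p = 1.25e-06). Mfap5 was 0.651-fold in stretched (-0.62 ± 0.15, adjusted p = 0.00344) and 0.602-fold in shortened tissue (-0.73 ± 0.09, adjusted p = 1.26e-05), and its other probe gave -0.98 and -1.05.

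The centred values of Eln averaged 1.01 ± 0.74 ex vivo and 2.13 ± 0.20 in vivo in stretched tissue, and 0.53 ± 0.30 ex vivo and 2.37 ± 0.23 in vivo in shortened tissue (SD, n = 4 and 7). In shortened tissue Eln, Mfap5 and Loxl1 did not overlap between settings, as 22.8% of probes did with ex vivo lower. In stretched tissue only Loxl1 did not overlap (3.69 to 4.46 ex vivo against 4.77 to 5.45 in vivo), where 20.3% of probes did so with ex vivo lower. From low to high, Loxl1 stood at 3.49 ± 0.47 ex vivo shortened, 4.19 ± 0.34 ex vivo stretched, 5.06 ± 0.22 in vivo stretched and 5.23 ± 0.17 in vivo shortened, and the neighbours within each setting overlapped.

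Fbln5 and Fbn2 passed in neither tissue. Fbln5 differed by -0.17 ± 0.12 in stretched and 0.05 ± 0.09 in shortened tissue, and Fbn2 by 0.13 ± 0.15 in stretched and -0.20 ± 0.15 in shortened tissue. Their direction depends on the scaling: on deposited values Fbln5 differed by -0.41 in shortened tissue and Fbn2 by -0.32 in stretched tissue. The fibroblast markers also averaged lower on the deposited scale, 10.7 ± 0.26 ex vivo stretched against 12.1 ± 0.13 in vivo stretched and 10.7 ± 0.19 ex vivo shortened against 12.2 ± 0.07 in vivo shortened, and macrophage markers were 8.12 ± 0.52 against 11.4 ± 0.15 and 8.41 ± 0.40 against 11.6 ± 0.11 in the same order. Their part in the result was not tested.

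**Figure D5:**
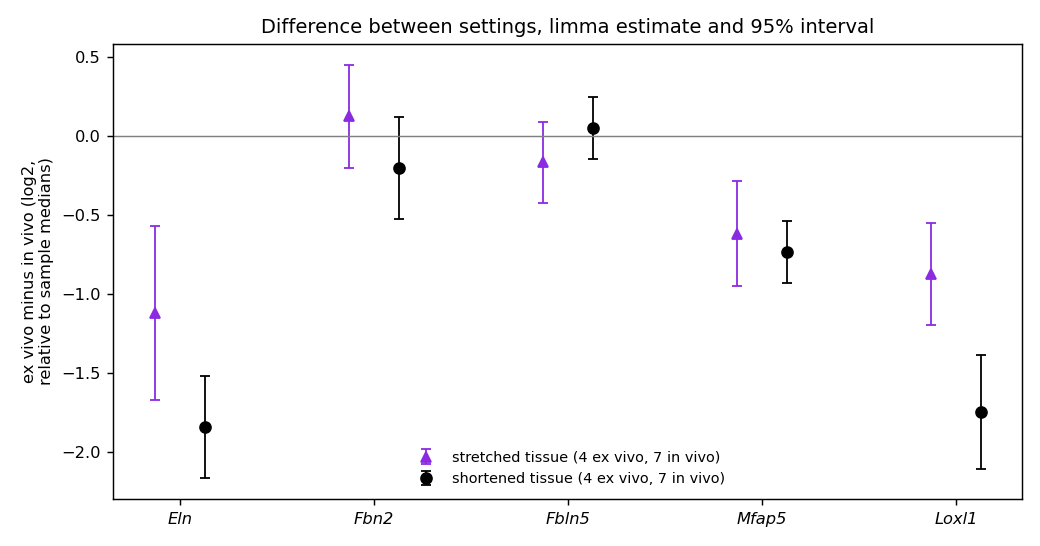
Ex vivo minus in vivo log2 difference relative to sample medians (y axis), with 95% interval, of each gene (x axis) in stretched and in shortened tissue. The estimates of Eln, Mfap5 and Loxl1 lie below 0 in both tissues and the intervals of Fbln5 and Fbn2 include 0.

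The genes did not vary as 1 block between samples. Over the 14 in vivo samples, 2 from each animal and all from 1 setting, Mfap5 and Loxl1 had r = 0.864. Fbn2 had r = 0.753 with Loxl1 and 0.746 with Mfap5, while Eln had r = 0.03 with Loxl1 and 0.572 with Fbln5. Over the 8 ex vivo samples Mfap5 and Loxl1 had r = 0.116, Eln and Loxl1 0.559, and Fbln5 and Loxl1 -0.648. Fbln5 and Mfap5 had the highest r of these genes there, 0.584, against 0.456 in vivo. Among the r of all genes with the second-named gene, these ex vivo values were above 53.214%, 81.541%, 8.188% and 95.591%. In vivo the shares were 98.07% for Mfap5 and Loxl1, 92.975% and 95.26% for Fbn2, and 54.223% and 92.24% for Eln, in the order given.

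The genes most like each over the 14 in vivo samples are given with r there and then over the 8 ex vivo samples. For Eln they were Eno2 (r = 0.819 and 0.162), Npr2 (0.797 and 0.842), Zfp362 (0.787 and 0.896), Dkk3 (0.780 and 0.438) and Gm20559 (0.778 and 0.381). For Loxl1 they were Abl1 (0.967 and 0.514), Clic1 (0.957 and 0.374), Cfp (0.955 and 0.429), Emp3 (0.955 and 0.887) and Zfp354c (0.954 and 0.301). Npr2 and Zfp362 for Eln and Emp3 for Loxl1 were thus close in both settings, with an ex vivo r above that of at least 98.086% of genes.

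For Mfap5 they were Fcgr2b (0.982 and 0.335), Selenom (0.969 and 0.381), Basp1 (0.967 and 0.486), Tmem30b (0.966 and 0.262) and Akr1c18 (0.963 and 0.481). For Fbln5 they were Rcn2 (0.953 and -0.150), Lcp1 (0.911 and -0.288), Rap2a (0.910 and 0.361), Sp110 (0.895 and 0.283) and Ugcg (0.893 and -0.136). For Fbn2, at its low signal, they were Apoa4 (0.915 and -0.360), Lgi4 (0.908 and 0.434), Ints6 (0.898 and 0.269), Nrk (0.892 and -0.088) and Saal1 (0.889 and 0.207). None of the genes named for Mfap5, Fbln5 or Fbn2 reached r = 0.5 ex vivo, but the rank of an r among all genes differs by member. Basp1 and Akr1c18 for Mfap5 had an ex vivo r above that of 91.029% and 90.786% of genes. For Lgi4 with Fbn2 the share was 89.527%, and for Abl1 with Loxl1, at r = 0.514, it was 78.577%.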

How the data were processed

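RMA and affy are the tools in the submitters' processing notes, without versions, and the authors deposited log2 signals per probe set. The log2 scale was read from their range (1.89 to 14.4). No pair of samples was identical. Samples were grouped by title, and same-numbered samples of a setting were taken as 1 animal, as the series design compares within animals. Deviations from group means correlated within animals with r of 0.385 to 0.867 in vivo and 0.109 to 0.284 ex vivo. The best match was the animal's own other piece except for in vivo animal 5 and ex vivo animal 4. The 64 control probes were left out. Probes were named from the platform annotation with symbols updated through RefSeq. Each comparison was fitted over 22626 probes with limma 3.58.1 in R 4.3.3 (lmFit, eBayes with trend), with the animal as a block for stretch and none between settings, Benjamini-Hochberg adjustment and a threshold of 0.05. The fit of stretch in vivo was tested on simulated data, and no such test is given here for the other fits. The simulated noise was independent between probes and samples. It therefore cannot show how the fit fares where many probes share a difference in muscle content or RNA quality between the pieces of an animal. The number of arrays limits the precision. The genes, lists, alternatives and the rule for named genes (the listed members, the gene of smallest p per role in each stretch comparison, the 5 most similar genes, and up to 3 markers per cell type) were chosen with earlier results of these data known. Promoter motifs were searched in RefSeq windows.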

Additional observations from a re-analysis of the deposited data

Results flagged for a closer look

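Among 30 sets of values tested for a sample far from the others (5 genes, 4 groups and both sets of pair differences), 2 stood out, where chance gives about 1 in 20. Fbn2 in shortened tissue of in vivo animal 1 had a signal of 5.01, with the gap to the next sample at 0.686 of the range of the group (critical value 0.568). Without that animal the in vivo Fbn2 difference was -0.17, against -0.22 with it. Fbln5 in shortened tissue of ex vivo animal 3 had a signal of 10.6, with a gap of 0.861 of the range (critical value 0.829), and the ex vivo Fbln5 difference without it was -0.27, against -0.42 with it.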

How the results depend on the processing

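Over 472 alternative values of the 5 genes, 465 kept their direction and 7 did not. Those were Fbn2 ex vivo without animal 4 (-0.029, range -0.029 to 0.22 over animals left out), the Mfap5 difference of settings without ex vivo animal 2 (-0.067, range -0.067 to 0.27), the Fbln5 difference of settings without in vivo animals 5 and 6 and ex vivo animals 3 and 4 (0.013), Fbn2 between settings in stretched tissue as deposited (-0.32), and Fbln5 in shortened tissue as deposited (-0.41), with quantile normalization of all samples (-0.026) and without ex vivo animal 3 (-0.024, range -0.024 to 0.095). The cause was not tested, except that values as deposited keep the shift between settings. Several alternatives leave an estimate unchanged by construction: the looser threshold, no trend, robust eBayes, and the filter on the probe mean. So do, for stretch, the fit without the replicate block and the fit of all 22 samples. The mean over all probes does so for Fbn2, Fbln5 and Loxl1, which had no second probe. The 465 thus overstates how far direction was put to the test.

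In vivo 0 probes and 0 of the 5 genes were called under every alternative run. Ex vivo only the fit of all 22 samples called any, 661 probes and 1 of the genes (Loxl1, adjusted p = 0.0263). That fit also took 1 residual spread per probe over both settings. The 40 probes called for the difference of settings became 5 with quantile normalization of all samples, 74 for probes of mean at least 6, 4 with no trend, 330 with array weights (1 gene, Loxl1), 8 with the muscle covariate, 344 at a threshold of 0.10 (1 gene, Loxl1), 9 without the muscle-rich pairs (1 gene, Eln) and 0 to 663 (0 to 1 of the genes) with 1 animal left out. Without the replicate block the difference of settings called 3 probes, and the block changed no other call. Between settings, values as deposited called 5 of 5 genes in shortened tissue, not 3. With 1 sample left out, 3 to 4 genes were called in stretched tissue and 3 in shortened tissue. The mean over both Eln probes lost its call in stretched tissue (-0.45, adjusted p = 0.0574). Listed genes lower at an unadjusted p under 0.05 numbered 20 in vivo, and 5 with the muscle covariate, 12 without animals 5 and 6 and 8 in animals 4 to 7. Ex vivo 4 became 1 with the muscle covariate and 1 without animals 3 and 4. Fbn2 has no value among probes of mean at least 6.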

Other observations

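Proteases that cut elastin and their inhibitors differed widely between explants and tissue in vivo, relative to sample medians and with the limits given for that comparison. The genes below were chosen after their values were seen. The macrophage elastase Mmp12 was higher ex vivo by 3.00 ± 0.15 (SE) in stretched and 3.32 ± 0.13 in shortened tissue, and the gelatinase Mmp9 was lower, with differences of -3.29 ± 0.36 and -3.59 ± 0.18. The inhibitors Timp1 (3.97 and 3.49) and Slpi (4.08 and 3.71) were higher ex vivo, while Timp2 (-1.68 and -1.86) and Timp3 (-1.73 and -1.87) were lower. Of 9 elastases 5 were higher and 3 lower in either tissue, and of 6 inhibitors 2 were higher and 4 lower, where 63.5% and 66.5% of all probes were called.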
